A study of Mus musculus with 4 samples.

Results

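Amacrine cells, the inhibitory interneurons of the inner retina, were compared with rods, the photoreceptors of dim light, in long-read counts of the adult mouse retina. The comparison used the AC and Rod columns of a table with 6 cell class columns, which were the deepest of the 6, with 48248340 and 55437340 counts. It took every gene with 100 or more counts in each of both columns. This was met by 5772 of the 16702 gene identifiers in the table, with 5598 Ensembl genes and 174 loci that carry a position as their name. These genes held 98.0% of the AC counts and 98.2% of the Rod counts. A further 1364 identifiers had 100 or more counts in the AC column and fewer in the Rod column, 1695 had them in the Rod column and fewer in the AC column, and 7871 had them in neither. Just inside the limit lay Akt2 with 231 and 100 counts in AC and Rod and Aldh16a1 with 100 and 192. Just outside lay Acp2 with 99 and 106 and Adat1 with 99 and 436.

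The retinas came from male wild-type C57BL6/J mice, dissociated with papain and made into 4 droplet libraries whose cDNA was read on a nanopore instrument. Of the 4, 2 had no enrichment (1 of them at postnatal day 40), 1 from postnatal week 8 carried the label of a CD73 enrichment, and 1 from postnatal month 4 that of a CD90.2 enrichment. The labels' protocol describes magnetic depletion of CD73-positive photoreceptors and magnetic selection of CD90.2-positive neurons, whereas the series design text names FACS. The columns do not say which library gave which cells, so a class is 1 pooled value without replicates, no test was possible, and class, age and enrichment cannot be told apart. CD90.2 is a form of the product of Thy1, so the level of Thy1 given below was part of a selection.

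Rods catch light in a stacked outer segment, where a light-sensitive pigment activates transducin and a phosphodiesterase, which removes cyclic GMP and so closes the channels it gates. They pass the signal on at a ribbon synapse, which releases glutamate continuously in the dark. Amacrine cells signal mostly with GABA or glycine, often together with a neuropeptide, through conventional synapses onto bipolar, ganglion and other amacrine cells.

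The columns were read for markers of each cell class. How cells were classed is not given, and such markers may have been used for it. The values therefore describe the columns and are no independent check of their names. All 8 amacrine markers (such as Gad1 and Slc32a1, for GABA synthesis and vesicle loading, and the transcription factor Tfap2b) had their highest level in the AC column. They summed there to 1144 counts for each 1000000 counts of the column (CPM) and to 15.9 CPM in the Rod column. All 8 rod markers, among them Sag and Nrl, were highest in the Rod column, with 32081 CPM summed, and reached 197 CPM in the AC column. Markers of other cells were also present. In the AC and Rod columns Müller glia markers summed to 1127 and 1525 CPM, ganglion cell markers to 699 and 119 CPM, bipolar markers to 103 and 913 CPM, cone markers to 61.2 and 1917 CPM, microglial markers to 47.3 and 697 CPM and hemoglobins to 27.5 and 2783 CPM. Horizontal cell markers summed to 72.9 and 12 CPM, pigment epithelium markers to 62.4 and 38.3 CPM, endothelial and pericyte markers to 6.65 and 1.91 CPM, and astrocyte markers to 0.539 and 2.54 CPM. Of these other markers, 2 of bipolar cells and 1 each of microglia, pigment epithelium and endothelium were at 0 in the AC column, and 1 each of horizontal cells and pigment epithelium in the Rod column. The part of these other cells in the differences below was not tested. In pooled columns a smaller share of expressing cells and less RNA per cell also cannot be told apart.

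Level was expressed as CPM, and a gene was called higher in one class when its CPM differed at least 2-fold, that is by 1 on the log2 scale. By this rule 1250 of the 5772 genes (21.7%) were higher in amacrine cells and 1546 (26.8%) were higher in rods, while 2976 lay between. The median log2 ratio, AC over Rod, was -0.11, with quartiles at -1.08 and 0.81 and extremes at -8.07 and 8.28. Ratios of 3 or more were found in 249 genes and of -3 or less in 236. The scaling matters for this balance, since the 10 most abundant genes took 18.9% of the Rod counts and 6.67% of the AC counts. With totals that leave out the 10 genes above 1% of a column, the median moved by -0.29, to -0.40, and the split became 960 higher in amacrine cells and 1963 higher in rods, so that 32.8% rather than 44.7% of the called genes were higher in amacrine cells. With a minimum of 500 counts the balance turned, with 711 genes higher in amacrine cells and 624 in rods (53.3% of the called genes higher in amacrine cells). The ratios below are on the CPM scale, and each would be lower by 0.29 on that other scale. Intervals are exact 95% intervals that cover counting error only, not differences between animals or libraries.

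**Figure D1:**
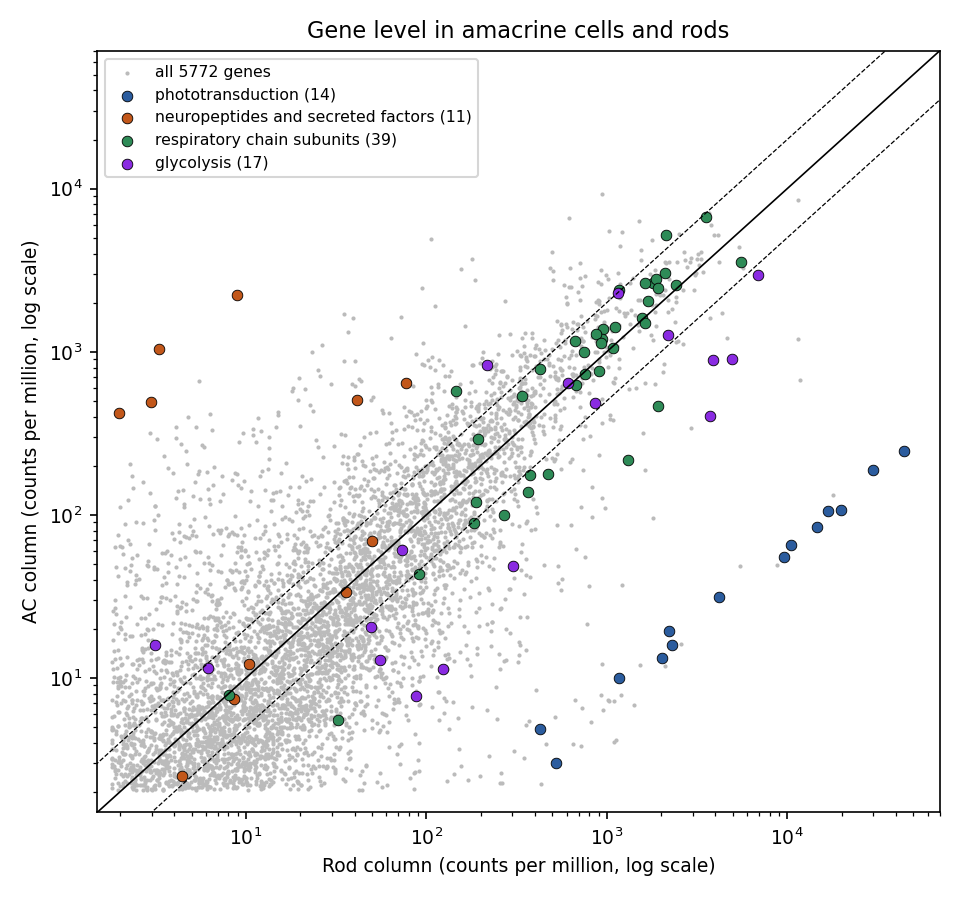
Level of 5772 genes in the AC column against the Rod column, in CPM on log axes. The solid line marks equal levels and the dashed lines 2-fold differences. Phototransduction genes (blue) lie far below the lower dashed line, and 6 of the 11 neuropeptides and secreted factors (orange) lie above the upper dashed line.

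Phototransduction genes were higher in rods throughout the compared set. Of 22 listed genes, 14 had 100 or more counts in both columns, and all 14 were higher in rods, with log2 ratios between -7.53 and -6.45 and a median of -7.32, against a background of 26.8% of genes. Gngt1 (ENSMUSG00000029663.10, chr6:3994008-3996902), the gamma subunit of rod transducin, had 247 CPM in amacrine cells and 44574 CPM in rods (log2 ratio -7.50, interval -7.52 to -7.47). Pde6g, the inhibitory subunit of the phosphodiesterase, had 188 and 29998 CPM (-7.32). Sag, which encodes rod arrestin, had 55.5 and 9645 CPM (-7.44), and Guca1a, a calcium sensor of guanylate cyclase, had 65.8 and 10507 CPM (-7.32). Across the 14 genes the level in the AC column was within a narrow range of shares of that in rods, from 0.540% for Pdc, which encodes phosducin, to 1.14% for Gnb5, the beta subunit that partners the RGS9 protein. A further 6 listed genes had 100 or more counts only in rods, against 10.1% of all identifiers in the table. They ran from Slc24a1, an ion exchanger, with 1 count in amacrine cells and 886 in rods (-9.59, interval -14.9 to -7.11), to Rgs9, which speeds the return of transducin to rest, with 11 and 277 (-4.45, interval -5.47 to -3.59). Rod RNA was subtracted from the AC column at the lowest AC to Rod ratio of the rod markers (0.371% of the rod level). This moved the median of the list from -7.32 to -8.60, over the 13 genes that kept 100 or more AC counts. Gngt1 moved from -7.50 to -9.09, so the size of these ratios depends on that choice.

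Outer segment and photoreceptor identity genes had similar ratios. Of 6 outer segment and cilium genes that could be compared, 5 were higher in rods, against 26.8% of all genes, with a median of -6.98. They included Prph2 and Rom1, which shape the disc rim, at -7.47 and -7.08, and Rp1, a microtubule protein of the outer segment, at -8.07. Spata7, a protein of the connecting cilium, was the exception at -0.77. A further 10 genes of this list had 100 or more counts only in rods, against 10.1% of all identifiers in the table. Rp1l1 had 0 counts in amacrine cells and 648 in rods, so that it was at least 188-fold lower in amacrine cells, taking 3 counts as the limit for a count of 0. All 5 comparable photoreceptor transcription factors were higher in rods, against 26.8% of all genes, and a further 7 had 100 or more counts only in rods. Nr2e3 (chr9:59845649-59950034), which represses cone genes in rods, had the lowest ratio of the 5772 compared genes, with 4.06 and 1094 CPM (-8.07, interval -8.28 to -7.87). Nrl, which sets the rod fate, stood at -7.22 and Rorb at -3.18.

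The other genes among the 10 lowest ratios were mixed. Agpat3, a lipid acyltransferase, had 328 counts in amacrine cells and 77990 in rods (-7.69). Sh2d1a, an adaptor protein known from lymphocytes, had 108 and 23970 counts (-7.59). Cabp4, the calcium-binding protein that tunes the calcium channel of the photoreceptor synapse, had 185 and 39716 (-7.55). Rcvrn, which encodes recoverin, had 4069 and 814732 (-7.45). Hbb-bs, a beta globin of red blood cells, had 568 and 116987 counts (-7.49), and its reads can be shared with the near-identical Hbb-bt. Hemoglobin markers also reached 12344 CPM in the Müller glia column.

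Part of the rod genes had a short motif before their start site. The homeodomain factor CRX is known to bind the letters TAATCC, and these were searched on both strands in the 250 bases before the start of each gene in RefSeq (GRCm38.p6). Of 46 genes with a ratio of -5 or less and a promoter in that table, 14 (30.4%) held it. The share was 9.35% between -5 and -3, 6.26% to 6.50% between -3 and 1, 5.36% between 1 and 5, and 0 of 40 genes at 5 or more. In all 27025 promoters it was 7.21%. The letters TGCTGA, a core known for NRL and its relatives, were in 15 of the 46 (32.6%), in 7 of the 40 genes at 5 or more (17.5%) and in 18% of all promoters. The letters of this pair of motifs cannot overlap each other. A match describes the letters only and does not show that a factor was bound. The 200 bases before the start site of 4 phototransduction genes with large ratios are shown 5′ to 3′ on the strand of the gene, with TAATCC or its reverse complement GGATTA in capitals. They are Gngt1 (chr6:3993808-3994007, plus strand, first motif 44 bases before the start), Guca1a (chr17:47400607-47400806, minus strand, 57 bases), Aipl1, a chaperone of the phosphodiesterase (chr11:72037510-72037709, minus strand, 53 bases), and Cngb1, a subunit of the rod channel, which holds 2 copies (chr8:95306586-95306785, minus strand, 58 bases).
Gngt1: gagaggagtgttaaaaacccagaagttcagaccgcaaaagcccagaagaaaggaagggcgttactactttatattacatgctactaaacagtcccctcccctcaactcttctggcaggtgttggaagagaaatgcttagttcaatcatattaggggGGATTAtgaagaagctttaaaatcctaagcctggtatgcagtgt
Guca1a: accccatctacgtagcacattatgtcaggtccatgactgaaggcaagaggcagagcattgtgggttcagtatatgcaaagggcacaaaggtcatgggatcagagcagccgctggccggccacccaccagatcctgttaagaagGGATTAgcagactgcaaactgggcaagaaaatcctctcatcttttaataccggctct
Aipl1: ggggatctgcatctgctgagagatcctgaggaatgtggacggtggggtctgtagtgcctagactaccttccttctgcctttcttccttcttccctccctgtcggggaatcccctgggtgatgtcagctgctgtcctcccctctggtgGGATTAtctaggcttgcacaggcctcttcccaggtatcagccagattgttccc
Cngb1: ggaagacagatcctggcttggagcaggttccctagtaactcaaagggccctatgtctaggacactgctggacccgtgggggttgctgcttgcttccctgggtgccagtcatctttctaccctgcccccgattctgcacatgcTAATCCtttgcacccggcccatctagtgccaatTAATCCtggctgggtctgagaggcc

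Neuropeptides and secreted factors held the highest ratios on the amacrine side. Of 11 compared genes of that list, 6 were higher in amacrine cells and none was higher in rods, with a median of 3.06, against a background of 21.7%. With totals that leave out the most abundant genes the same list gave 6 and 1. Npy (ENSMUSG00000029819.6, chr6:49822710-49829507), neuropeptide Y, had the highest ratio of the 5772 compared genes, with 49939 counts in amacrine cells and 184 in rods (1035 and 3.32 CPM, log2 ratio 8.28, interval 8.08 to 8.50). Cxcl14, a chemokine, had 2223 and 8.98 CPM (7.95), C1ql2, a secreted synaptic organizer, 420 and 1.98 CPM (7.73), and Tac1, the precursor of substance P, 493 and 2.98 CPM (7.37). Cck and Cartpt, 2 more peptide precursors, stood at 3.61 and 3.06. Vip had 9549 counts in amacrine cells and 52 in rods, so it was not among the compared genes. Peptides did not all lie on the amacrine side. Penk, the enkephalin precursor, had 121 counts in amacrine cells and 244 in rods (-0.81), Chgb, a granin of secretory granules, 1634 and 1986 (-0.08), and Sst, the somatostatin precursor, 0 and 84 counts.

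Transmitter and identity genes of amacrine cells mostly stayed under the limit of 100 counts in rods, and many stayed under it in both columns. Of 9 transmitter genes in the table, 4 reached it only in amacrine cells and 4 in neither column. Of 11 listed transmitter genes only Slc6a9, the glycine transporter GlyT1, could be compared, with 692 and 201 counts (1.98, interval 1.76 to 2.22). Gad1, which makes GABA, had 4224 counts in amacrine cells and 46 in rods, and Slc32a1, which loads GABA and glycine into vesicles, had 1848 and 44. Th, the enzyme that marks dopaminergic amacrine cells, had 268 and 0 counts, at least 103-fold higher in amacrine cells. Of 4 comparable amacrine transcription factors 3 were higher there, against 21.7% of all genes. They were led by Pax6 (296 and 4.09 CPM, 6.18) and Tfap2b (273 and 4.37 CPM, 5.97), while Tcf4 was at 0.27. Of 17 such factors in the table, 5 had 100 or more counts only in amacrine cells and 8 had fewer in both columns. Among the 8, Ptf1a (0 and 24 counts), Nfia (10 and 27) and Isl1 (4 and 8) had fewer counts in amacrine cells, and the others had more. Receptors for these transmitters were read against all identifiers of the table, of which 8.17% had 100 or more counts only in amacrine cells and 10.1% only in rods. Of 20 listed GABA-A and glycine receptor subunits, 12 had 100 or more counts only in amacrine cells, such as Glra2 with 1645 and 9 counts. Gabrr1 and Gabrr2, subunits known from bipolar cells, had 100 or more counts only in rods, with 545 against 21 and 877 against 37, and the bipolar markers also summed higher in the Rod column. No ionotropic glutamate receptor subunit reached the limit in rods, while 4 of 15 listed reached it in amacrine cells, led by Gria4 with 1273 and 29 counts.

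The remaining genes of the 10 highest ratios were Kcna6, a voltage-gated potassium channel (662 and 5.48 CPM, 6.92), Thy1 (317 and 2.94 CPM, 6.75), Lhfp (290 and 3.21 CPM, 6.50), Cacng3, a regulator of AMPA receptors (204 and 2.29 CPM, 6.48), Crabp1, a retinoic acid binding protein (400 and 4.76 CPM, 6.39), and Nrsn2, a vesicle protein of neurons (343 and 4.11 CPM, 6.38). Thy1 also belongs to the ganglion cell markers, which summed higher in the AC column as given above. Among the genes with the highest CPM in amacrine cells that passed 2-fold, Gng3, a neuronal G protein gamma subunit, differed most, with 4940 and 107 CPM (5.53), whereas Gngt1 of the same family was higher in rods. Sncb, beta-synuclein, had 6580 and 615 CPM (3.42), Calm2, a calmodulin gene, 9218 and 935 CPM (3.30), and Pcsk1n, an inhibitor of prohormone processing, 4438 and 1187 CPM (1.90). Ftl1 (2.42), Mif (2.16), Ppia (2.07), H3f3b (1.45) and Cox4i1 (1.29) were also in this set, and Ftl1, Ppia and H3f3b have near-identical copies in the genome that can share reads. Mgarp, a mitochondrial protein, was just past the limit at 1.05 and under it, at 0.77, with totals that leave out the most abundant genes. Among the most abundant rod genes, Unc119, which carries acylated proteins to the outer segment (673 and 11774 CPM, -4.13), and Cst3, cystatin C (1199 and 11472 CPM, -3.26), had ratios well above those of phototransduction.

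Both lists of the release machinery held genes of each direction. Of 9 comparable genes of conventional synapses 4 were higher in amacrine cells, against 21.7% of all genes, and 2 in rods, a share near the 26.8% of all genes. Their median was 0.27 and moved to -0.02 with totals that leave out the most abundant genes. Cplx1, which clamps and triggers vesicle fusion, had 87.5 and 2.15 CPM (5.35), Rab3a 3247 and 483 CPM (2.75), Snap25 3114 and 505 CPM (2.62) and Vamp2 2749 and 503 CPM (2.45). Syp, synaptophysin, was higher in rods, with 10.2 and 95.4 CPM (-3.22), as was Nsf (-1.53). Of 10 comparable genes of the ribbon synapse and photoreceptor terminal 6 were higher in rods, against 26.8% of all genes, and 2 in amacrine cells, near the 21.7% of all genes. The pair of complexins known from ribbon synapses differed in direction, with Cplx4 at 7.28 and 1027 CPM (-7.14) and Cplx3 at 49.5 and 2.83 CPM (4.13). Ctbp2, the gene of the ribbon protein ribeye, was higher in amacrine cells at gene level, with 21.6 and 4.58 CPM (2.23, interval 2.03 to 2.44). It also encodes a widely expressed repressor, and the isoform with most counts was the same in both columns.

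Cytoskeletal and metabolic genes held members with large ratios in both directions. Of 22 compared neuronal cytoskeleton genes 12 were higher in amacrine cells, against 21.7% of all genes, and 5 in rods, near the 26.8% of all genes. Stmn4, a microtubule destabilizer, had 418 and 6.31 CPM (6.05) and Gap43, of growth cones, 267 and 5.68 CPM (5.56). Dpysl3, a collapsin response mediator, had 2.88 and 155 CPM (-5.75), Map2 2.98 and 71.5 CPM (-4.58) and Map1b 2.32 and 35.5 CPM (-3.93). Of 17 compared glycolysis genes 9 were higher in rods, against 26.8% of all genes, and 3 in amacrine cells, against 21.7%, with a median of -1.24. Hk1, hexokinase 1, had 7.71 and 87.3 CPM (-3.50), Pkm, pyruvate kinase, 404 and 3732 CPM (-3.21) and Ldha 890 and 3893 CPM (-2.13). Hk2 had 0 counts in amacrine cells and 214 in rods, at least 62.1-fold lower in amacrine cells. Pfkm, the muscle-type phosphofructokinase (2.35), and Ldhb, the heart-type lactate dehydrogenase (832 and 217 CPM, 1.94), were higher in amacrine cells. Of 39 compared respiratory chain subunits 3 were higher in amacrine cells, against 21.7% of all genes, 9 were higher in rods, a share near the background of 26.8%, and 27 lay between, with a median of 0.26 that moved to -0.02 under the other totals. Those higher in rods included Ndufs1 (-2.56) and Atp5b (-2.05). Across all 5772 genes, the ratio was somewhat lower for longer transcripts, with a Spearman correlation of -0.15 over genes, which are not independent replicates. The median was 0.31 for mean lengths of 500 to 1000 nt and -0.43 for 2000 to 3000 nt, and the count-weighted mean length was 1036 nt in AC and 1096 nt in Rod. The part of length in these ratios was not tested.

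Other lists were read in the same way, against 21.7% of all genes higher in amacrine cells and 26.8% higher in rods. Of 5 compared genes of the sodium-potassium ATPase, the pump that restores ion gradients, 3 were higher in amacrine cells and 1 in rods. Atp1b1 had 281 and 9.16 CPM (4.94). Of 11 immediate early and stress genes, 3 were higher in amacrine cells, such as the metallothionein Mt1 (1274 and 252 CPM, 2.34), and 6 in rods, such as the chaperones Hspa1a (-4.11) and Hsp90aa1 (-3.86). Egr1 had 1017 counts in amacrine cells and 49 in rods. Of the splicing regulators, 11 reached 100 counts in both columns, a limit that leaves out those low in either class. Among these 7 were higher in rods, among them Celf1 (5.06 and 57.6 CPM, -3.51), Msi1, a Musashi protein (3.23 and 28.3 CPM, -3.13), Srrm3 (-2.01) and Srrm4 (-1.14), known for neural microexons. Of the 28 listed regulators in the table, a further 10 reached 100 counts only in amacrine cells, against 8.17% of all identifiers, and 1 only in rods, against 10.1%. The former included Rbfox1 with 5852 and 22 counts, Rbfox2 with 3720 and 79, Khdrbs2 with 3639 and 77 and Elavl3 with 2735 and 92.

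**Figure D2:**
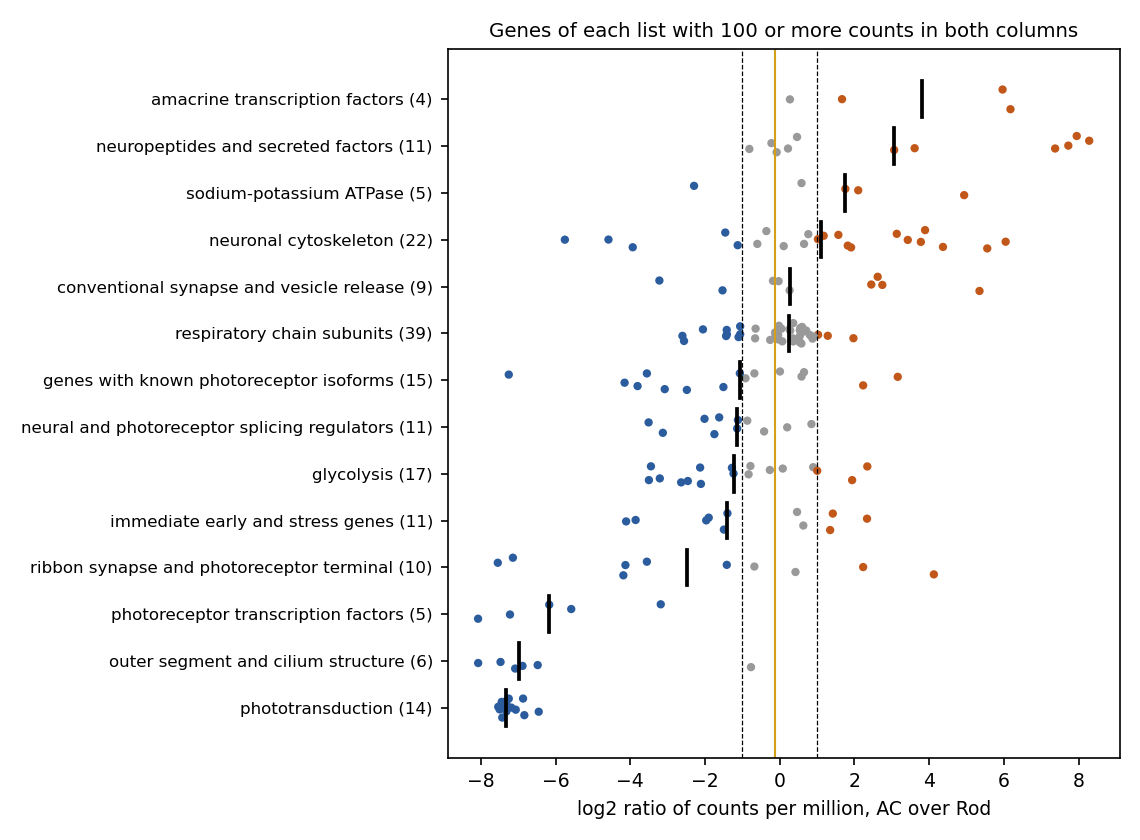
Log2 ratio of CPM, AC over Rod, of each gene with 100 or more counts in both columns, by list, with the number of genes in parentheses. Black bars are medians, the yellow line is the median of all 5772 genes, dashed lines mark 2-fold, and orange and blue points lie beyond them. Phototransduction genes gather around a median of -7.32, and the neuronal cytoskeleton spans from -5.75 to 6.05.

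The second question was whether both classes use the same isoforms of the genes they share. Of the 5772 genes 4011 had 2 or more isoforms in the table. The isoform with most counts differed between the columns in 768 of them. A switch was called where it differed and where, for either of the leading isoforms, the shares in AC and Rod lay at least 50 percentage points apart. This was met by 205 genes (5.11%). An isoform whose share differed by at least 25 points was found in 926 genes (23.1%), and the median of the largest difference over all genes was 11.5 points. In level, 87 of the 205 switched genes (42.4%) lay within 2-fold, against 51.6% of all 5772. Of the 205, 49 (23.9%) were higher in amacrine cells, against 21.7%, and 69 (33.7%) were higher in rods, against 26.8%. The base of 5772 is unlike, since it includes genes with 1 isoform, which could not switch. In 86 switches both isoforms were Ensembl transcripts, and in 57 both were annotated as coding, of which 46 differed in their coding sequence. The pairs differed by an alternative first exon in 105 genes, a cassette exon in 70, an alternative last exon in 57, a retained intron in 5, and other splice sites in 4 at the 5′ end and 3 at the 3′ end of an intron. A pair can have several of these kinds. Spliced isoforms without any overlap, such as those of Casz1, count under both first and last exon. In 22 pairs 1 isoform was a part of the other's chain of introns, a form that an incomplete cDNA would also give, and 14 of these had the shorter form in rods. The AC isoform was the longer one in 91 pairs and the Rod isoform in 106.

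The largest differences in share ran from 91.1 to 99 points. In Cacna2d4 (chr6:119236526-119302992), an auxiliary subunit of the photoreceptor calcium channel, an isoform without a deposited model held 396 of the 400 AC counts and 0 of the 735 Rod counts, which allows up to 0.408%. In rods an 8-exon isoform held 541 counts (73.6%, interval 70.3 to 76.8%). In Fam149a (chr8:45339075-45382090), both isoforms had 14 exons and differed in the first, with 151 of 153 counts for the form ENSMUST00000155230.1 in amacrine cells and 668 of 711 for ENSMUST00000093526.12 in rods. In Prkcz (chr4:155262100-155361361), an atypical protein kinase C, a 15-exon transcript held 6803 of 6958 counts in amacrine cells (97.8%) and an 18-exon transcript from another first exon held 3966 of 4171 in rods (95.1%). The shorter one starts further into the gene, and the brain form known as PKM-zeta also has an internal promoter. Ganglion cells had 100% of 530 counts on the shorter transcript and cones 96.8% on the longer one. Rorb (chr19:18936789-19111196), a nuclear receptor with a known second promoter, used ENSMUST00000112832.7 in amacrine cells (449 of 489 counts, 91.8%) and ENSMUST00000040153.14 in rods (3470 of 5105, 68.0%). In Casz1, a zinc finger factor known for its part in rods, Nav3, Lrpprc and Dclk1, a microtubule kinase, the isoforms of each pair did not overlap. They lay in separate stretches of the gene and were counted as differing in both first and last exon. Whether they are parts of longer transcripts was not tested. Lrpprc had 2300 of 2300 counts on a 14-exon form in amacrine cells, and its 7-exon rod form had 221 of 228 counts in rods and 0 in amacrine cells, which allows up to 0.130%. Acer2, a ceramidase, had 668 of 669 counts on a 2-exon form in amacrine cells and 722 of 814 on a 6-exon form in rods. In Bin1, of the membrane-bending protein amphiphysin 2, an exon of 129 nt (chr18:32426224-32426352) was in 96.9% of 4795 counts in amacrine cells, 3.81% of 9093 in rods and 95.7% of 255 in ganglion cells. The difference in share of the Bin1 isoform was 93.1 points, and 57.3 points with only Ensembl isoforms counted. The complete list of the 12 largest also holds Atp1b2 and Lman2l, whose exons are given below.

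Switches in deeply counted genes were ranked by the lower of both gene counts. Rps24 (chr14:24490718-24495858), a ribosomal protein gene with 171878 and 231425 counts, had 158727 counts (92.3%) on a 6-exon transcript in amacrine cells and 210184 (90.8%, interval 90.7 to 90.9%) in rods on a 7-exon transcript with an added exon of 18 nt. Its gene level was within 2-fold (-0.23). Bsg (chr10:79704508-79711969), basigin, had nearly equal levels (0.01), and 80.5% of its counts in amacrine cells lacked an exon of 348 nt that 85.8% of its counts in rods held. That exon is the one of the photoreceptor form, which has an added immunoglobulin domain. The form with it also held 62.9% of the counts in bipolar cells and 87.2% in cones, against 2.39% in Müller glia and 0.270% in ganglion cells. Faim, an apoptosis inhibitor with a known longer neuronal form, had 94.3% of its counts on ENSMUST00000112911.8 in amacrine cells and 83.0% on ENSMUST00000185472.1 in rods. Myl6, a myosin light chain, had 65.9% on a transcript without a 45-nt exon in amacrine cells and 92.4% on one with it in rods. Wbp2 (135-nt exon) and Vps29, a retromer subunit (12-nt exon), had the exon-skipping form as the first in amacrine cells, with 66.9% and 92.6%, and the including form in rods, with 94.0% and 59.7%. Guk1, guanylate kinase, and Pigp differed in the first exon, by 54.2 and 52.1 points.

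**Figure D3:**
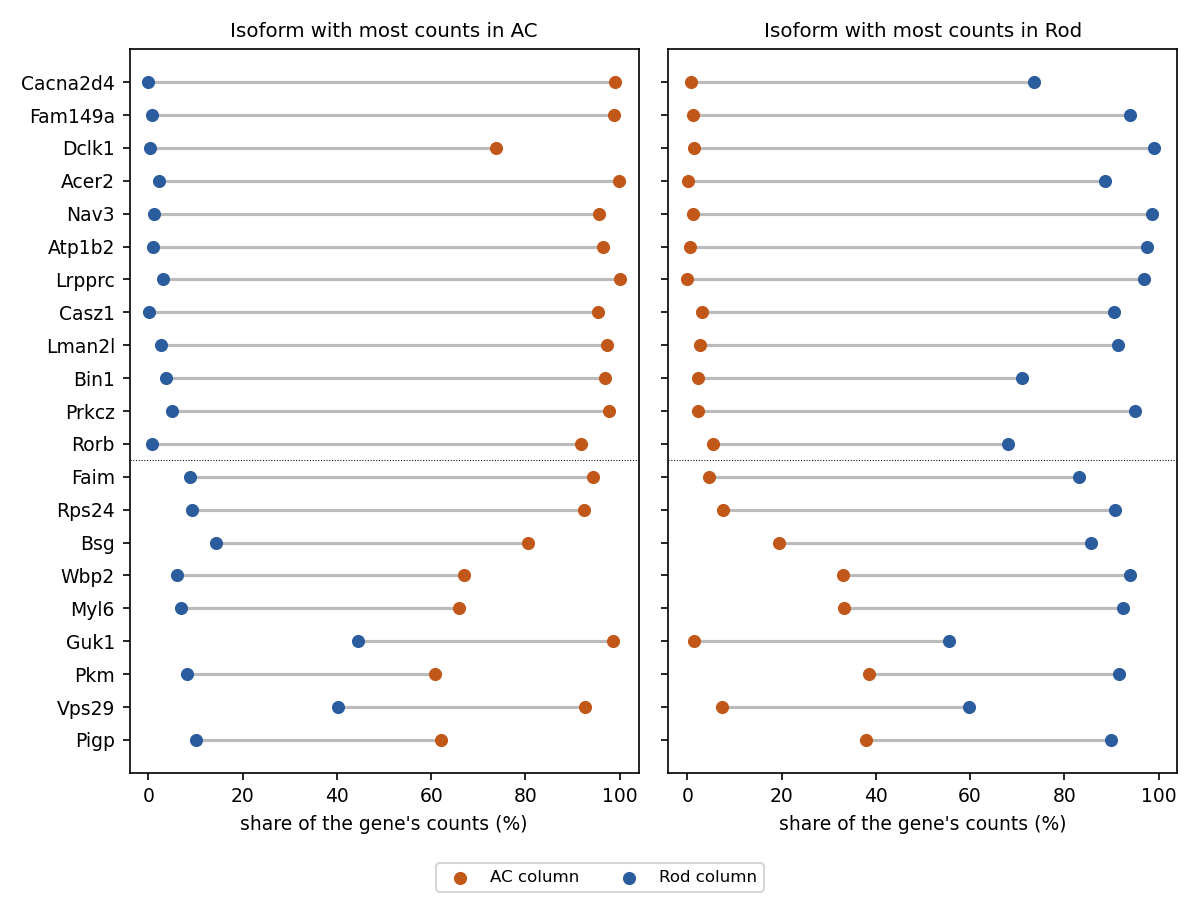
Share of the gene's counts held by the isoform that leads in the AC column (left) and by the one that leads in the Rod column (right), for the switched genes described here, with orange points for AC and blue points for Rod. The 12 genes above the dotted line have the largest differences, and those below it are among the 10 switches with most counts in the less counted column. In Dclk1 the AC form holds 73.8% in AC and 0.379% in Rod.

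Pyruvate kinase is a switch between a pair of exons that exclude each other, the choice known to make the M1 and M2 enzymes. Both exons had 167 nt, and 64 of their bases differ (61.7% identical). The upstream exon (chr9:59675029-59675195), of the M1 form, was in 11963 of 19470 counts in amacrine cells (61.4%, interval 60.8 to 62.1%) and in 17276 of 206868 in rods (8.35%, interval 8.23 to 8.47%). The downstream exon (chr9:59675568-59675734), of the M2 form, was in 38.6% and 91.6%. Of the other columns, cones included the M1 exon at 6.38%, bipolar cells at 9.40%, Müller glia at 6.61% and ganglion cells at 99.8%. The pair is shown because each count holds 1 exon or the other, with exon letters in capitals and 15 bases of each neighbouring exon in lower case. These and the exons below are from GENCODE M21 transcripts (GRCm38), 5′ to 3′ on the strand of the gene.
Pkm upstream: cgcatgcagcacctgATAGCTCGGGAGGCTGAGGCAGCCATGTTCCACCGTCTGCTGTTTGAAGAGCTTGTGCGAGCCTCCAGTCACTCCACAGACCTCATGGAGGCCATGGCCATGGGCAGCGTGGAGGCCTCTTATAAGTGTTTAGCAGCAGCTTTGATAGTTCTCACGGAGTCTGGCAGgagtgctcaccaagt
Pkm downstream: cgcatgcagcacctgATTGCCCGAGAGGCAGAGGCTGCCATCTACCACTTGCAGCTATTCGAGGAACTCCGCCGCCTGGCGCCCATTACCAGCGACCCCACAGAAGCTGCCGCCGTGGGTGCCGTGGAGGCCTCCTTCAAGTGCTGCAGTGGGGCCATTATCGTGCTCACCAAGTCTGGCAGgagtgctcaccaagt

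Inclusion was then measured for every internal exon, as the share of counts of isoforms spanning it that contain it. A form of an exon with another splice site counted as a separate exon. The same choice between forms, or between exons that exclude each other, can therefore enter both directions. With 100 or more spanning counts in each column, 34348 exons of 5165 genes were measured. In amacrine cells 371 exons (1.08%) of 318 genes were included at least 25 points more, and in rods 502 exons (1.46%) of 378 genes. Only isoforms with a deposited model entered, and those without one held 20256 AC counts and 0 Rod counts. Exons found only in such isoforms could not be measured, which limits the amacrine direction alone. Microexons of up to 27 nt passed the rule more often than all exons, 34 of 266 (12.8%) against 2.54%. Of the 34, 13 were higher in amacrine cells and 21 in rods. They include overlapping forms of an Nptn exon, of 22 and 10 nt, with mirrored differences. Of the 8448 exons included at 1 to 99% in either column, which hold every called exon, 10.3% passed. The 266 microexons were not limited in this way, so the 12.8% has an unlike base. The share among variable microexons was not measured. The share was 3.44% for exons of 28 to 60 nt and 2.20% to 2.25% for those of 61 to 250 nt, and it was 4.83% for those over 250 nt. Of the exons higher in amacrine cells 246 (66.3%) and of those higher in rods 382 (76.1%) were coding throughout, against 88.0% of all measured. The lengths were a multiple of 3 in 42% and 38.4%, against 37.4% of all. Counting only isoforms that use the same outer splice sites moved the counts to 183 and 244 exons. Of the exons chosen for naming by size or as microexons, 34 kept a difference of 25 points under this count, 12 had under 100 such counts, among them those of Cacnb2, Camk2d and Dctn1, and 5 did not keep it.

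**Figure D4:**
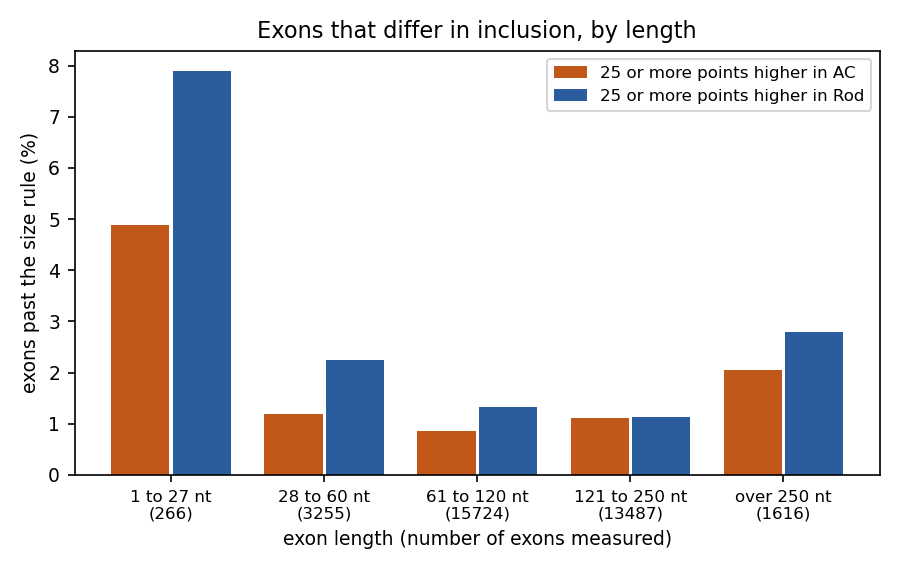
Percentage of internal exons included at least 25 points more in the AC column (orange) or the Rod column (blue), by exon length in nt, with the number of measured exons in parentheses. The group of 1 to 27 nt has the highest percentages, 4.89% and 7.89%, and the group over 250 nt has 2.04% and 2.78%.

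The largest differences towards rods were a pair of neighbouring microexons of Atp1b2, the beta 2 subunit of the sodium pump, also known as an adhesion protein of glia. The 27-nt exon (chr11:69602304-69602330, minus strand) was in 221 of 6124 counts in amacrine cells (3.61%) and in 4644 of 4692 in rods (99%). The 21-nt exon (chr11:69601924-69601944) was in 30 (0.490%, interval 0.331 to 0.699%) and in 4578 (97.6%, interval 97.1 to 98.0%). Cones included them at 99.1% and 94.0%, bipolar cells at 29.9% and 10.1%, and ganglion cells at 0.909% and 0 of 110 counts. Ttc8, a subunit of the BBSome that moves membrane proteins in cilia, has a 30-nt exon known from photoreceptors (chr12:98937120-98937149). It was in 31 of 351 counts in amacrine cells (8.83%, interval 6.08 to 12.3%) and in 7086 of 7167 in rods (98.9%). Arl6, a GTPase that recruits the BBSome, has a 13-nt exon (chr16:59618666-59618678) whose length is not a multiple of 3, at 66.6% in amacrine cells and 98.5% in rods. The 17-nt exon of Impdh1 (chr6:29201888-29201904), of the enzyme that limits guanine nucleotide synthesis, was at 19.9% and 95.4%. The 12-nt exon of Vps29 (chr5:122356794-122356805) was at 7.35% and 59.7%. Bipolar cells included these exons of Arl6, Impdh1 and Vps29 at 98.2%, 76.3% and 89.0%, and Müller glia at 57.9%, 86.1% and 47.5%. Ganglion cells had 26.3%, 0 of 44 counts and 4.67%. The 18-nt exon of Rps24 (chr14:24494052-24494069) was at 7.65% and 90.8%, and it was also high in ganglion cells, at 80.1% of 10785 counts. Exons of 120 nt in Cacnb2, a calcium channel beta subunit (15 of 125 counts and 97.7%), and in Cadm2, a synaptic adhesion protein (0 of 123 counts, which allows up to 2.44%, and 85.3%), were among the 10 largest too, as were exons in Pcbp3, Prr3, Dok4 and Ptprg. With only isoforms of the same outer splice sites counted, the Pcbp3 exon showed no difference. Those of Cacnb2, Dok4 and Ptprg had under 100 such counts in AC or Rod. Pcbp3 and Ptprg each also have an exon among the 10 largest towards amacrine cells, with the mirrored difference. Short exons of this set are shown because the difference in the transcript rests on these few bases, with the exon in capitals.
Atp1b2 27 nt: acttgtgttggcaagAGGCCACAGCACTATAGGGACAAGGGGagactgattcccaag
Atp1b2 21 nt: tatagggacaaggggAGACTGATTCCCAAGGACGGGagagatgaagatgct
Ttc8 30 nt: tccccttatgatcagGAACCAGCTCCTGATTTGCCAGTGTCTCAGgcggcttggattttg
Arl6 13 nt: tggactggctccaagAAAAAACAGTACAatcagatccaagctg
Impdh1 17 nt: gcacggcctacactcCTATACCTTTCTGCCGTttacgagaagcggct
Vps29 12 nt: atgGCTGGGCACAGAttggtgttggtacta

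Towards amacrine cells, the largest difference was a 33-nt exon of Lman2l (chr1:36429423-36429455), a lectin of the early secretory path, in 1168 of 1200 counts in amacrine cells (97.3%, interval 96.3 to 98.2%) and 34 of 1223 in rods (2.78%, interval 1.93 to 3.86%). A 270-nt exon of Snap91, the clathrin adaptor AP180 (chr9:86792467-86792736), was at 98.2% and 9.48%. Camk2d, calcium/calmodulin-dependent kinase II delta, included a 42-nt exon (chr3:126808208-126808249) in 166 of 188 counts in amacrine cells (88.3%) and in 3 of 993 in rods (0.302%, interval 0.0623 to 0.880%). A 30-nt exon of Arfgap1 (chr2:180978412-180978441) was at 92.9% and 14.4%. The exons of Pcbp3 and Ptms showed no difference when only isoforms with the same outer splice sites were counted, and Mettl25, Ptprg, Pdlim5 and Bin1 complete the 10 largest. Among microexons, the 6-nt exon of Nsfl1c (chr2:151502455-151502460), of the p97 cofactor p47, was best counted, with 97.8% of 8914 AC counts and 32.02% of 11858 Rod counts including it. Ganglion cells stood at 99.1% and cones at 30.9%. The 18-nt exon of Ewsr1 (chr11:5091460-5091477), an RNA-binding protein, was at 46.6% of 6557 counts and 1.41% of 10104, with ganglion cells at 32.8%, cones at 1.86% and bipolar cells at 0.497%. Limk2, a kinase of the actin regulator cofilin (18 nt, 86.7% and 20.9%), Zmynd8 (12 nt, 90.3% and 28.5%) and the dynactin subunit Dctn1 (18 nt, 62.4% and 18.2%) followed.
Lman2l 33 nt: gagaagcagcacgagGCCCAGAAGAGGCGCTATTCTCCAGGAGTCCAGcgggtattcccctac
Camk2d 42 nt: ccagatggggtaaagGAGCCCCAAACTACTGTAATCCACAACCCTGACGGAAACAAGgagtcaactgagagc
Arfgap1 30 nt: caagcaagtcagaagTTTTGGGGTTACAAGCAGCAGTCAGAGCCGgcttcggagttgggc
Ewsr1 18 nt: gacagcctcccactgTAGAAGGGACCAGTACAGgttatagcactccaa
Nsfl1c 6 nt: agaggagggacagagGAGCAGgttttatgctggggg

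**Figure D5:**
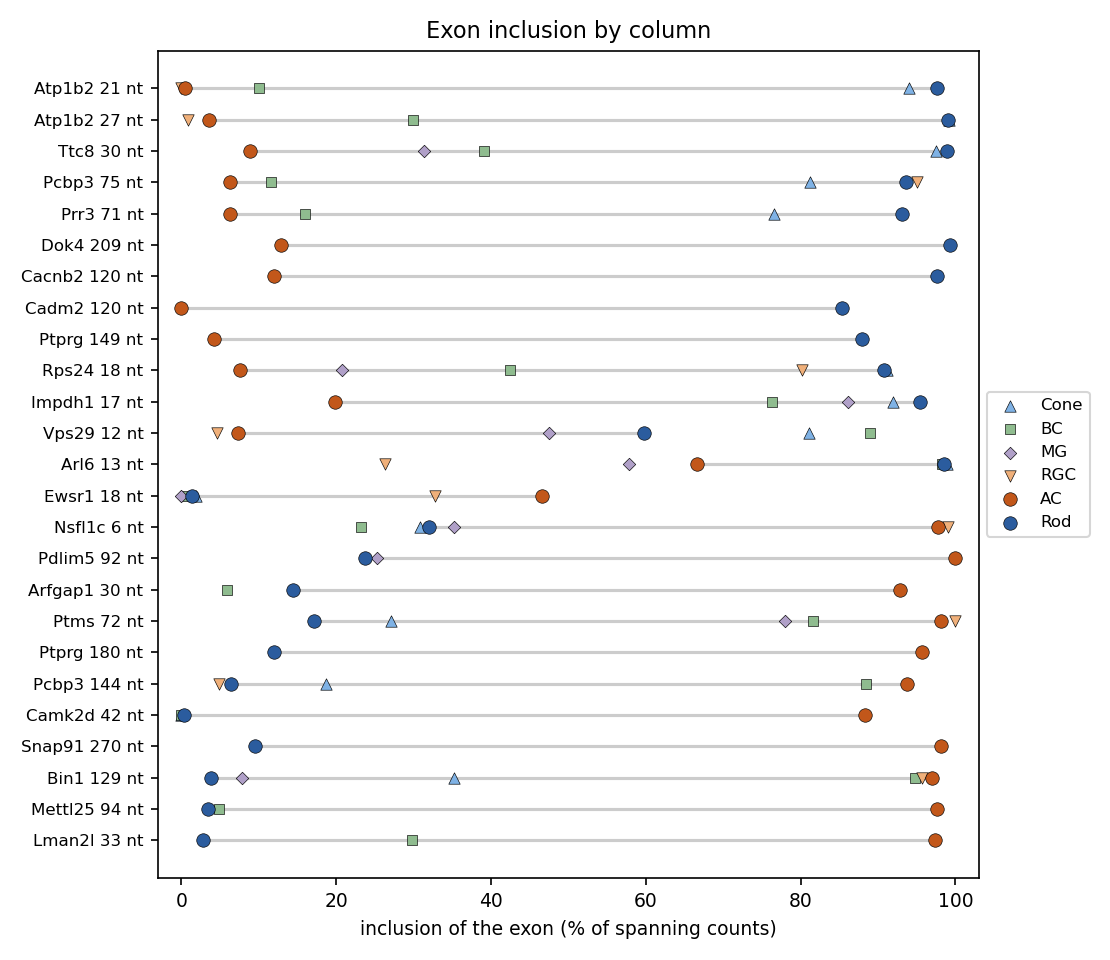
Inclusion, in percent of spanning counts, of the 10 exons with the largest difference towards each class and of 5 well counted microexons, with a symbol for each column that had 100 or more spanning counts. Rod (blue) and AC (orange) circles are joined by a line. For Ttc8 the cone symbol, at 97.4%, lies beside the Rod circle at 98.9%.

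The other columns were read for all called exons with 100 or more spanning counts. For exons higher in amacrine cells, ganglion cells were nearer to amacrine cells than to rods in 60 of 68 and cones in 13 of 135. For exons higher in rods, ganglion cells were nearer to amacrine cells in 79 of 99 and cones in 13 of 162. Bipolar cells were between, nearer to amacrine cells in 126 of 276 (45.7%) and 130 of 392 (33.2%), and Müller glia in 34 of 112 and 38 of 150. These are descriptions, since the exons were chosen by the AC and Rod values and the columns were sequenced together.

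Exons with at least 4000 spanning counts in each column, a limit chosen after the values were seen, were read apart from the thinly counted genes. Of 5027 such exons 22 were higher in amacrine cells and 31 in rods (1.05% together), in 42 genes. Snap25, the SNARE of the vesicle membrane fusion complex, has a pair of alternative exons of 118 nt with 31 different bases. The upstream one (chr2:136769743-136769860) was in 43912 of 150239 counts in amacrine cells (29.2%, interval 29.0 to 29.5%) and 898 of 28013 in rods (3.21%, interval 3.002 to 3.42%), and in ganglion cells, cones and bipolar cells it was at 7.11%, 2.58% and 13.5%. The AC column thus lay above all of these. A 36-nt exon of Clta, a clathrin light chain (chr4:44031400-44031435), was at 57.9% in amacrine cells and 87.6% in rods. A 60-nt exon of Mff, a mitochondrial fission factor (chr1:82747083-82747142), was in 18582 of 30954 counts in amacrine cells and at 29.6% in rods. A 159-nt exon of Hnrnpa1, a splicing repressor (chr15:103242922-103243080), was at 89.1% and 50.6%. Ogt, which adds N-acetylglucosamine to proteins, used the shorter of 2 forms of an exon (chrX:101643006-101643156, 151 nt) at 82.6% in amacrine cells and 38.1% in rods. In Srsf7, an SR protein, an exon form of 1126 nt that runs through an intron (chr17:80204313-80205438) was at 2.32% in amacrine cells and 31.6% in rods. The Snap25 pair is shown with its flanks in lower case.
Snap25 upstream: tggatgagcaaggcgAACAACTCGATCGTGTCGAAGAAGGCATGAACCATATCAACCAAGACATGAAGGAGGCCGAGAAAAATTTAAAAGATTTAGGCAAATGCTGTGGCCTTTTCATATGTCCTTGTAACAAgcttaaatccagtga
Snap25 downstream: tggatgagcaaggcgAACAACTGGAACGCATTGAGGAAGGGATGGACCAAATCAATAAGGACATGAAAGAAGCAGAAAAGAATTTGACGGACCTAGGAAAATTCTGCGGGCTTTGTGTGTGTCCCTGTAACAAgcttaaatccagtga

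Genes known for isoforms of photoreceptors were also listed as a group. Of 22 listed, 13 could be compared and had 2 or more isoforms, 10 had an isoform whose share differed by at least 25 points, against 23.1% of all genes, and 7 were switched, against 5.11%. The list was drawn up from knowledge of photoreceptors and with earlier results of these data known, so its counts are a description. Besides Cacna2d4, Atp1b2, Bsg, Ttc8 and Impdh1, the switched members were Slc4a7, a bicarbonate transporter (76.2 points), and Ablim1, an actin-binding protein (64.1 points). Rpgr and Clta had differences of 32.8 and 32.4 points. Ctbp2 (17 points), Cltb (9.83 points) and Gnb1 (0.426 points) stayed under 25.

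After the subtraction of rod RNA described above, 202 of the 205 switched genes could still be compared, and all 202 stayed switched. The rest fell under 100 AC counts. Taking rod RNA out of the AC column moves its isoform shares away from those of rods, so this step could hardly undo a switch. The pooled columns allow no statement on the variation between animals. The counts may be reads rather than molecules, so the intervals can be too narrow.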

How the data were processed

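The series measured full-length cDNA of dissociated mouse retina in 4 libraries. The authors deposited raw counts per isoform and cell class, with 6 columns and no split by library, and transcript models whose source field names FLAIR. The build was mm10, per the submitters' processing notes. Whether a count is a read or a molecule, how cells were called and classed, and how doublets were treated are not given in the sources used here. The models cover isoforms counted in rods: 779 isoforms of the compared genes have none, with 20256 AC counts (0.0428%) and 0 Rod counts.

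Isoform counts were summed by gene, and CPM used the column total. Log2 ratios carry exact conditional binomial 95% intervals and shares exact Clopper-Pearson ones, which cover counting error only and are too narrow if the counts are PCR reads rather than molecules. A count of 0 was given a limit of 3 counts. Exons were classed with GENCODE M21, which holds 94.4% of the models' 122601 junctions. Gene ratios and isoform switches were tested on simulated counts, and exon inclusion on a made-up gene with a known answer. The other steps were not tested in this way. With 1 pooled value per class there was no test. The genes named were the 10 lowest and 10 highest ratios and the 10 with the highest CPM past 2-fold in each class, 4 per list by summed CPM with those needed to describe its split, the 12 largest switches, the 10 most counted switches, the 10 largest exon differences in each direction and the microexons past 25 points; genes and exons outside it were chosen after their values were seen. The members and gene lists were chosen with earlier results of these data known. Alternatives changed the count minimum, the scaling (edgeR 4.0.16 TMM in R 4.3.3, median of ratios, and totals without the most abundant genes), the size limits, the isoforms counted and the rod RNA in the AC column. Python 3.11.15, pandas 2.3.3, numpy 2.4.6, scipy 1.17.1 and matplotlib 3.10.9 were used. Some genes that the rule names are not reported here.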

Additional observations from a re-analysis of the deposited data

How the results depend on the processing

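Of the 37 genes named for their ratio or level, none that an alternative could measure changed direction. All 37 were chosen with at least a 2-fold difference. The scalings moved a ratio by at most 0.29 and the count minimum moved none, so neither could reverse a direction. Genes named from lists or switches were not among the 37. Totals without the most abundant genes lower every ratio by 0.29, so that Tcf4 (0.27) and Bsg (0.01) become negative. With a minimum of 500 counts, 3300 genes were compared, 711 were higher in amacrine cells and 624 in rods, 78 were switched, 357 had a share difference of 25 points, and 127 and 191 exons were included more in amacrine cells and in rods. With a minimum of 50, 322 genes were switched, 1419 had a share difference of 25 points, and 575 and 841 exons passed. A log2 limit of 2 left 529 genes higher in amacrine cells and 584 in rods. Switches numbered 576 at 25 points and 46 at 75 points. With only Ensembl isoforms, 112 genes were switched (93 of the 205 among them), 422 had a share difference of 25 points, and 181 and 186 exons passed. Counting exons only over isoforms with the same outer splice sites gave 183 and 244, of which 156 and 208 were among the original ones, and a limit of 50 points gave 49 and 100. Merging isoforms with the same introns kept 191 switches. TMM factors gave 1191 genes higher in amacrine cells and 1616 in rods, and median-of-ratios factors 1252 and 1539. Subtracting rod RNA from the AC column moved 12 of 32 named ratios, by up to 1.67. No paired analysis was possible because each class is 1 pooled column that carries no replicate number, and for the same reason no library could be left out. Depth limits the exon comparison to genes with 100 or more spanning counts in both columns.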
